A study of Homo sapiens with 16 samples.

Results

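The promoters of the cytoplasmic ribosomal protein genes were examined for H3K27ac in THP-1 cells with and without USP18. Members were the rows of the deposited table whose gene name is an RPL or RPS symbol with a number, with at most 1 letter A, L or X after it, and whose peak lies within 3000 bp of that gene's transcription start site (TSS). The rule used names and positions and no measured value. It gave 97 windows of 151654 in the table, at 71 genes, of which 43 encode proteins of the large subunit and 28 encode proteins of the small subunit. At 47 genes there was 1 window, at 22 genes there were 2 and at 2 genes there were 3. Of the 97 windows, 48 overlapped another member window, so windows of a gene share tags and are not independent. Each gene is therefore represented below by its window closest to the TSS, and counts over all 97 windows are named as such. RPL17, RPL34 and RPS25 had windows only farther away and are not members.

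THP-1 cells come from a human acute leukemia of the monocytic type. Acetylation of histone H3 at lysine 27 (H3K27ac) marks active promoters and enhancers. The 4 groups were WT cells, labelled as carrying Cas9 only, and USP18-/- cells edited by CRISPR, each without treatment or after 6 h of IFNα (1000 U/ml), with 2 biological replicates per group. All cells carried Cas9. USP18-/- cells were grown from sorted single cells, so a genotype difference cannot be told apart from a difference between cell lines. The authors counted tags in a 1000 bp window at each merged ATAC-seq peak of hg38, and all levels are given as CPM, the tags of a window scaled to the library total over all windows after TMM correction. Since every window has the same length, levels can be compared between genes. Library totals over windows were 9046141 to 12935453.5 tags, member windows held 0.281 to 0.310% of them, and all 97 passed the filter of at least 10 tags in at least 2 libraries. Counting precision for a window follows its tags, and with 2 libraries a group the spread is estimated by sharing it across regions. As a check of the label, the myeloid regulator gene SPI1 reached 92.2 CPM at its TSS and CD33 11.1 CPM. Other myeloid genes were lower, with 0.851 to 9.35 CPM over 4 windows of CSF1R and 2.28 to 6.10 CPM over 3 windows of CD14. No window within 3000 bp was listed for CD3E, GATA1 or EPCAM. The granulocyte enzyme gene MPO went from a mean of 53.0 CPM in untreated WT to 4.31 CPM in IFN treated USP18-/- cells, and the part of such differentiation genes in the results below was not tested. The USP18 promoter window itself held 76 and 84 tags in untreated WT libraries and 94 and 87.5 in untreated USP18-/- libraries, and H3K27ac there does not test the edit.

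Ribosomal protein genes encode the proteins that assemble with ribosomal RNA into the large and small ribosomal subunits. They are transcribed in every growing cell and their proteins are needed in equal amounts, so their promoters are commonly treated as constitutive. Many of their transcripts start with a C inside a run of pyrimidines, the 5′ terminal oligopyrimidine (TOP) tract, through which translation of the whole family is coupled to mTOR signaling. USP18 is a protease and a negative regulator of type I IFN signaling, and IFN acts mainly on interferon stimulated genes (ISGs), whose promoters carry binding sites for the STAT and IRF factors.

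The start sites were read from RefSeq promoters (GRCh38.p14), with the entry closest to the TSS implied by the deposited distances. An entry was found for 56 of 71 genes. Of these 56, 36 (64.3%) carried a strict TOP start, a C at +1 followed by pyrimidines up to at least base +5. The same start was found in 4.07% of 35116 promoters of all genes and in 6 of 90 promoters of mitochondrial ribosomal protein genes (6.67%). The following 30 bases run from -15 to +15 around +1, and capitals mark the longest pyrimidine run that touches the 5 bases on either side of the start. The first 6 were chosen as TOP starts of genes whose H3K27ac differed between groups or was among the highest.
RPL10 (chrX:154398362-154398391, plus strand): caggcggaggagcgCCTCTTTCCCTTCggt
RPL26 (chr17:8383179-8383208, minus strand): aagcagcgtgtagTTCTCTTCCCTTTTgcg
RPL28 (chr19:55385917-55385946, plus strand): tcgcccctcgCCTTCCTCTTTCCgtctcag
RPS14 (chr5:150449725-150449754, minus strand): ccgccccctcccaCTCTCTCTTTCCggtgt
RPL12 (chr9:127451392-127451421, minus strand): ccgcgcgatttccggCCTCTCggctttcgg
RPS18 (chr6:33272060-33272089, plus strand): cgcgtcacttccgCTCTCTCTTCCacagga
Only 1 entry was read per gene, although RPL32 has 3 and RPL11 has 2. Genes that differed between groups or stood high also include some without a strict TOP start at the entry read, such as RPL10L and the next 4.
RPL11 (chr1:23691764-23691793, plus strand): cgcctcctggcccataaggCCCTCggccgg
RPL32 (chr3:12841568-12841597, minus strand): tccctgctaggaCCCaggggttacgaccca
RPL9 (chr4:39458908-39458937, minus strand): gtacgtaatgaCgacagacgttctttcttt
RPS29 (chr14:49598696-49598725, minus strand): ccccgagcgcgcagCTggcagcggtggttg
The last 2 are paralogs, shown because their starts differ. RPS27 has the TOP tract and RPS27L has none at this start, which lies 65 bases from the start implied by the deposited distances.
RPS27 (chr1:153990747-153990776, plus strand): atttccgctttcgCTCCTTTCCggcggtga
RPS27L (chr15:63157463-63157492, minus strand): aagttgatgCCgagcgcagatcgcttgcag
Promoter motifs were counted on both strands over the 300 bases from 250 before to 50 after the start. The ETS factor core CGGAAG was present in 62.5% of the 56 promoters, in 50% of the 90 of mitochondrial ribosomal protein genes and in 19.5% of all promoters. The YY1 core GATGGC was present in 30.4%, 37.8% and 12.9%. The GC box GGGCGG was in 58.9%, 58.9% and 45%, and the TATA box TATAAA in 8.93%, 3.33% and 11.5%. The pattern GAAANNGAA, part of the IFN response element, was in 10 of the 56 promoters (17.9%), in 8.89% of the mitochondrial set and in 8.11% of all promoters. These are matches of letters and not tested sites.

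H3K27ac at the ribosomal protein genes was high but far from uniform. Over all 8 libraries, the median of the 71 genes, at the window nearest the TSS, was 27.6 CPM, with quartiles of 18.8 and 37.8 CPM. Over all 97 windows the median was 25.8 CPM, beside 9.09 CPM over 28847 proximal regions tested (within 3000 bp of a TSS). In 68 of 71 genes the level lay above the proximal median, and in 14 it lay in the highest 10%. Mitochondrial ribosomal protein genes had a median of 15.9 CPM over all 93 of their windows. The highest levels were at RPS18 (89.3 CPM), RPL7 (89.2 CPM) and RPS29 (75.9 CPM), all of which encode core subunit proteins. RPS18 and RPL7 cannot be ranked against each other, since the 8 libraries ran from 74.1 to 116 CPM at RPS18 and from 79.0 to 105 CPM at RPL7. These ranges include differences between groups. With USP18 loss in untreated cells the log2 fold change was 0.29 at RPS18 and 0.23 at RPL7 (edgeR adjusted p = 0.0066 and 0.044). Under IFN it was 0.51 at RPS18 (edgeR adjusted p = 5.6e-07) and 0.12 at RPL7, which did not pass the test (edgeR adjusted p = 0.32). The lowest levels were at RPL3L (1.04 CPM), the muscle paralog of RPL3, at RPL10L (4.53 CPM), the testis paralog of RPL10, and at RPS4X (7.93 CPM), an X-linked member of the small subunit. The nearest windows of RPL3L and RPL10L lie 1713 and 1436 bp from the TSS, in an exon and in intergenic sequence, so they do not cover the start itself. Replicates were close, since the median gene differed between the libraries of a group by 0.10 to 0.14 on the log2 scale. Over all proximal regions this was 0.18 to 0.21. Repeated sequence, which can misplace reads among the many processed copies of these genes, was measured as the share of a window's 32-base stretches that occur elsewhere in hg38, and its median was 2.99%. Above 10% lay 23 of 97 windows, and RPL24 reached 28.8%.

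**Figure D1:**
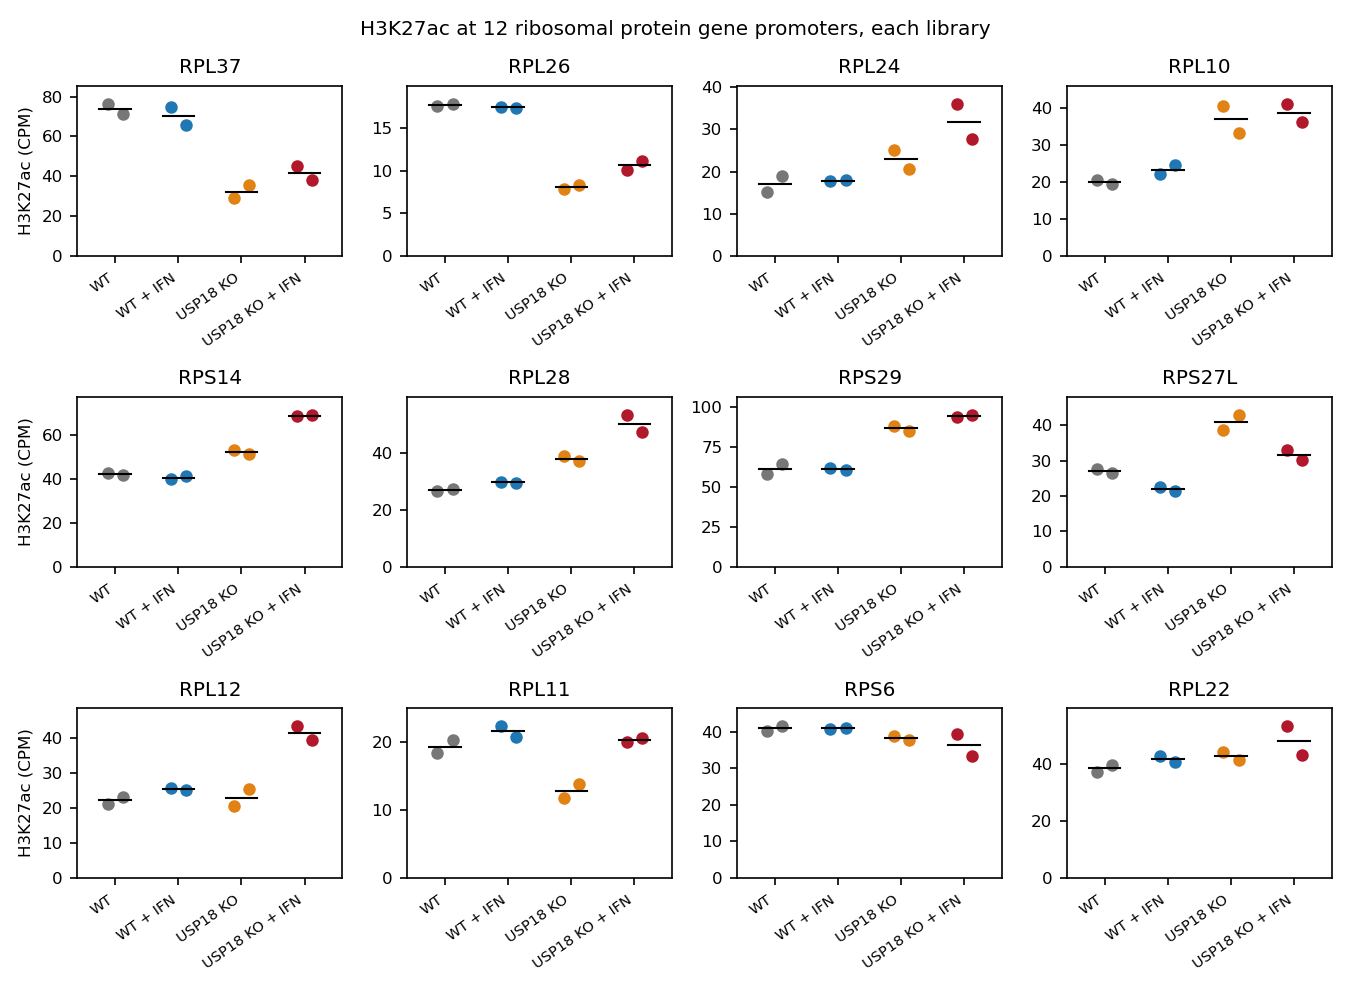
H3K27ac in CPM (y axis, from 0) at 12 ribosomal protein gene promoters in the 4 groups (x axis); each point is 1 library and each bar the mean of 2. At RPL37 and RPL26 both USP18-/- groups lie below both WT groups, at RPL10, RPL28 and RPS29 above them, and at RPL12 only the IFN treated USP18-/- libraries, with 43.4 and 39.5 CPM, stand apart.

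IFN treatment of WT cells moved none of these promoters past the threshold. With the quasi-likelihood test of edgeR and Benjamini-Hochberg correction across 123276 regions, 0 of 97 windows were higher and 0 lower at an adjusted p under 0.05. Among all regions, 0.647% were called higher and 0.148% lower. Past a 2-fold change these shares were 0.343% and 0.0389%, again with 0 member windows. At an unadjusted p under 0.05, 2 member windows were higher and 1 lower (2.06% and 1.03%), beside 4.5% and 4.44% of all regions, and DESeq2 called 0 in either direction. The median log2 fold change of the 71 genes was 0.04, with quartiles of -0.02 and 0.11, beside -0.0058 over all proximal regions. Over the same 6 h, 21 of 24 windows of 10 ISGs rose in WT cells, and the median of the 24 was 1.85 on the log2 scale.

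The largest estimate upward was at RPS15, a small subunit protein at the ribosome's decoding center, with 27.6 and 20.1 CPM untreated and 32.2 and 27.5 CPM with IFN (log2 fold change 0.33, SE 0.13, adjusted p = 0.32). The groups overlapped, as the higher untreated library lay above the lower treated one. The largest estimate downward was at RPS27L, a p53 inducible paralog of RPS27, with 27.7 and 26.5 CPM untreated and 22.6 and 21.4 CPM with IFN (-0.30, SE 0.12, adjusted p = 0.38). Its groups did not overlap, as at 5 of 71 genes and in 20.5% of all tested regions in that direction. The difference did not pass the test. RPL38, RPS4X and RPS24 also had positive estimates, with log2 fold changes of 0.32, 0.26 and 0.24. RPL10L, RPL23, RPS27 and RPL13 were the next downward, with -0.23, -0.13, -0.12 and -0.12. RPL13A, whose protein is known for a role outside the ribosome in silencing inflammatory transcripts after interferon gamma, had 23.7 and 22.9 CPM untreated and 21.4 and 23.7 CPM with IFN. RPS6, the subunit protein phosphorylated downstream of mTOR, had 40.3 and 41.6 CPM untreated against 40.9 and 41.0 CPM with IFN.

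Loss of USP18 in untreated cells moved the promoters in both directions, while proximal regions as a whole had a median above 0. Of 97 windows, 24 were higher and 21 lower in USP18-/- cells (24.7% and 21.6%) by the same edgeR test with Benjamini-Hochberg adjusted p, beside 16.9% and 16.7% of all regions. Among proximal regions the shares were 37.1% and 9.62%, and among 93 windows of mitochondrial ribosomal protein genes they were 47.3% and 5.38%. The median log2 fold change was -0.10 over the 71 genes and -0.0028 over the 97 windows, against 0.31 over proximal regions and 0.36 over mitochondrial ribosomal protein genes. Translation factor genes had a median of 0.44 and proteasome subunit genes 0.31. Past a 2-fold change, 3 windows were higher and 3 lower, beside 5.69% and 10.8% of all regions. The 3 higher windows were 2 at RPL10L and 1 at RPL10, and the 3 lower ones were 2 at RPL37 and 1 at RPL26. Of 43 large subunit genes 6 rose and 10 fell (median -0.03), and of 28 small subunit genes 8 rose and 7 fell (median -0.10).

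**Figure D2:**
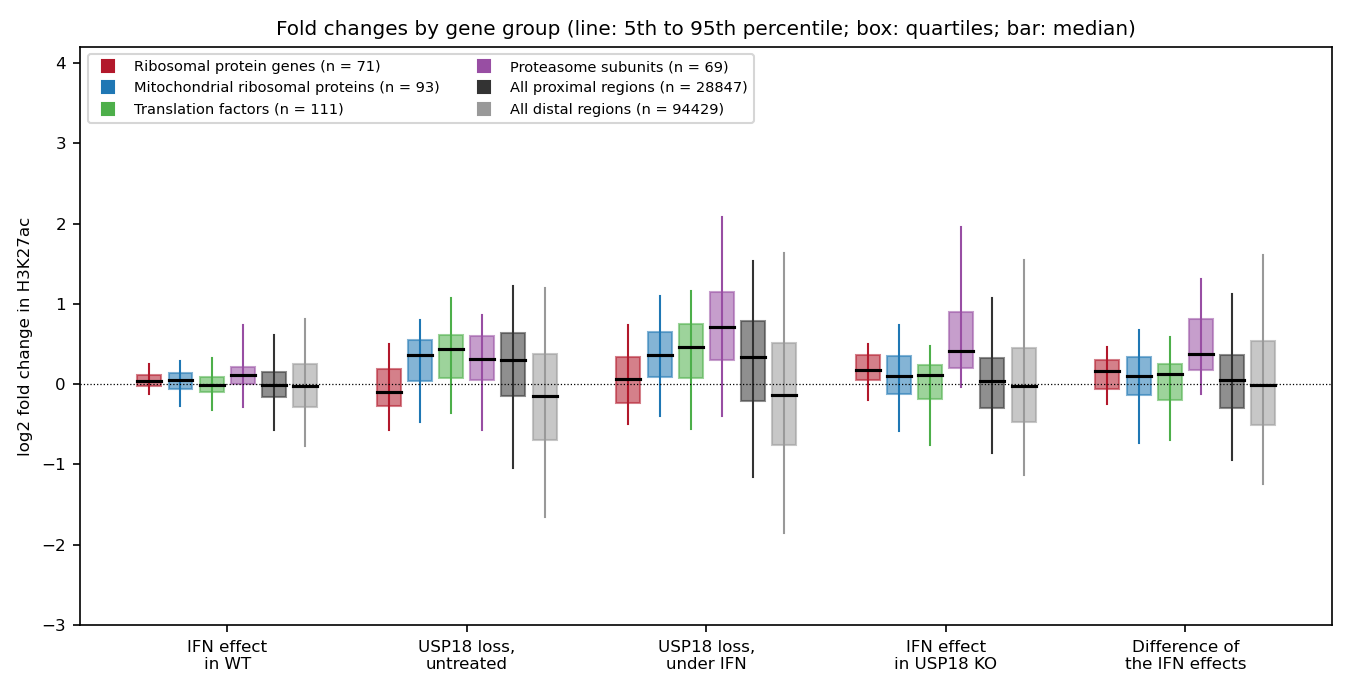
Log2 fold change in H3K27ac (y axis) in the 5 comparisons (x axis) for the ribosomal protein genes (1 window each), 3 other gene groups, and all proximal and distal regions; boxes span the quartiles, lines the 5th to 95th percentile and bars mark the median. With USP18 loss in untreated cells the ribosomal protein genes have a median of -0.10, while the other 3 gene groups and all proximal regions lie between 0.31 and 0.44. Those sets count every window within 3000 bp of a TSS, and over all 97 ribosomal protein windows the median is -0.0028.

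RPL37, a large subunit protein, had the largest fall. Its window on chromosome 5 (40834804 to 40835804, promoter) held 76.2 and 71.5 CPM in untreated WT libraries and 29.0 and 35.6 CPM in untreated USP18-/- libraries. Both USP18-/- libraries lay far below both WT libraries, with a log2 fold change of -1.19 (SE 0.10, edgeR adjusted p = 2.7e-16). The surrounding 5 Mb on either side moved the same way, with a median of -0.86 over 558 regions, which leaves -0.34 at RPL37. RPL26, a large subunit protein that also binds the p53 transcript, had 17.6 and 17.8 CPM in WT and 7.83 and 8.37 CPM in USP18-/- cells. The groups did not overlap, as at 30 of 71 genes and in 32.5% of all tested regions in that direction. The log2 fold change was -1.13 (SE 0.16, edgeR adjusted p = 1.5e-08), beside a local median of -0.45. Smaller falls were found at RPL11 (-0.60) and RPL27 (-0.57). RPL11 acts with RPL5 and 5S ribosomal RNA as an inhibitor of MDM2. It went from 18.5 and 20.3 CPM in WT to 11.8 and 13.9 CPM in USP18-/- cells (edgeR adjusted p = 0.00055). RPL5 itself had 32.8 and 30.9 CPM against 24.3 and 29.9 CPM, and its difference of -0.23 did not pass the test (edgeR adjusted p = 0.13). RPS3, a small subunit protein with a known part in NF-κB binding and DNA repair, fell from 28.6 and 28.3 CPM to 23.1 and 21.3 CPM (-0.36, SE 0.12, edgeR adjusted p = 0.016). Its call was lost in 5 of 17 alternatives of the processing, over which the log2 fold change ran from -0.67 to -0.21.

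The largest rise was at RPL10L, from 0.985 and 2.00 CPM in WT to 9.54 and 6.09 CPM in USP18-/- cells. Its log2 fold change was 2.34 (SE 0.29, edgeR adjusted p = 1.2e-10), and the second window at this gene gave 2.31. RPL10, a large subunit protein on the X chromosome that joins late in assembly, rose from 20.6 and 19.4 CPM to 40.7 and 33.2 CPM (0.89, SE 0.12, edgeR adjusted p = 4.8e-09). Its upstream window at 358 bp gave 1.21, and the window 382 bp downstream of the TSS gave 0.31 (edgeR adjusted p = 0.093). RPS27L went from 27.7 and 26.5 CPM to 38.7 and 42.8 CPM (0.59, SE 0.11, edgeR adjusted p = 1.8e-05). RPS27, its constitutive paralog, had 47.2 and 47.1 CPM in WT and 44.1 and 40.1 CPM in USP18-/- cells, a difference of -0.16 that did not pass the test. RPS29 rose by 0.50 and RPL28 by 0.50, from 26.6 and 27.3 to 38.9 and 37.4 CPM at RPL28. At RPL10L, RPL10, RPS27L, RPS29 and RPL28 both USP18-/- libraries lay above both WT libraries. The same held at 23 of 71 genes and in 31% of all tested regions, so by itself it sets no gene apart. RPS14, a small subunit gene whose loss contributes to the anemia of the 5q- syndrome, rose by 0.30 (SE 0.10, edgeR adjusted p = 0.012). RPS27A, which encodes ubiquitin fused to a ribosomal protein, rose by 0.28 (edgeR adjusted p = 0.016). With TMM of proximal regions the values were -0.0096 at RPS14 and -0.030 at RPS27A, so neither rise held its direction under that scaling, and both calls were lost with the sum of counts or the header totals. They were also lost without WT untreated replicate 1 (adjusted p = 0.058 at RPS14 and 0.069 at RPS27A) or 2 (0.10 and 0.13), at RPS14 without USP18-/- untreated replicate 1 (0.069) and at RPS27A without USP18-/- untreated replicate 2 (0.12). RPS19, mutated in Diamond-Blackfan anemia, had 46.4 and 44.9 CPM against 50.0 and 54.7 CPM, and its 0.20 did not pass the test (edgeR adjusted p = 0.13). With WT untreated replicate 1 left out, 15 windows were higher and 10 lower, and without WT untreated replicate 2 or USP18-/- untreated replicate 1, 13 and 12 were lower.

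Under IFN, USP18 loss again moved the promoters in both directions. Of 97 windows, 32 were higher and 15 lower in USP18-/- cells (33.0% and 15.5%) by the same edgeR test with Benjamini-Hochberg adjusted p, beside 21.3% and 19.4% of all regions and 40.6% and 12.4% of proximal regions. Past a 2-fold change, 3 windows were higher and 0 lower, beside 11.3% and 13.5% of all regions. The 3 were again the 2 windows at RPL10L and the upstream window of RPL10. The median log2 fold change was 0.07 over the 71 genes and 0.09 over the 97 windows. It was 0.34 over proximal regions, 0.36 over mitochondrial ribosomal protein genes and 0.71 over proteasome subunit genes. No library is shared with the untreated comparison, though both compare the same lines. Of the 14 genes higher and 17 lower in untreated cells, 11 were higher and 8 lower again under IFN, and 0 were called in opposite directions. These are 78.6% of the higher and 47.1% of the lower genes in untreated cells, beside 70.9% and 70.7% over all regions and 79.7% and 69.8% over proximal regions. Of the genes called under IFN they are 52.4% and 66.7%, beside 56.2% and 61.1% over all regions, and opposite calls were made in 1.1% of all regions. The 11 included RPL4, RPL10, RPL10L, RPL24, RPL28, RPS14, RPS18, RPS27A, RPS27L and RPS29. The 8 included RPL10A, RPL26, RPL37, RPL39L, RPL41, RPS10 and RPS23. Without WT IFN replicate 1, 8 windows were lower.

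RPL24, a large subunit protein, had the largest rise after RPL10L, with 17.7 and 17.9 CPM in WT and 36 and 27.8 CPM in USP18-/- cells under IFN (0.84, SE 0.14, edgeR adjusted p = 1.6e-07). Both USP18-/- libraries exceeded the WT libraries, as at 31 of 71 genes and in 33.8% of all tested regions. RPL24 is the gene window with 28.8% repeated stretches. RPS14 followed, with 39.8 and 41.1 CPM against 68.2 and 68.7 CPM (0.76, SE 0.10, edgeR adjusted p = 4.0e-10). RPL28 rose by 0.76 and RPL10 by 0.73. RPS19, which did not pass in untreated cells, rose here from 45.7 and 41.8 CPM to 61.2 and 61.1 CPM (0.48, SE 0.10, edgeR adjusted p = 3.1e-05), and whether its 2 genotype differences differ is the test of the IFN effects below. Among falls, RPL37 had 74.8 and 65.9 CPM in WT and 45.3 and 38.0 CPM in USP18-/- cells (-0.76, SE 0.10, edgeR adjusted p = 1.6e-09). With the local median of -0.76 subtracted, 0.0068 remained. RPL26 fell by 0.72, RPL39L by 0.49 and RPL41 by 0.49 on the log2 scale. RPL39L is the paralog of RPL39, and RPL39 itself had 17.9 and 17.0 CPM in WT against 17.9 and 15.2 CPM in USP18-/- cells under IFN, with overlapping groups. The call at RPL39L is weak, since 8.12 and 9.34 CPM stand against 10.4 and 14.1 CPM and without WT IFN replicate 1 the adjusted p was 0.42. In untreated cells its value of -0.43 (edgeR adjusted p = 0.049) lost the call in 8 of 17 alternatives of the processing.

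**Figure D3:**
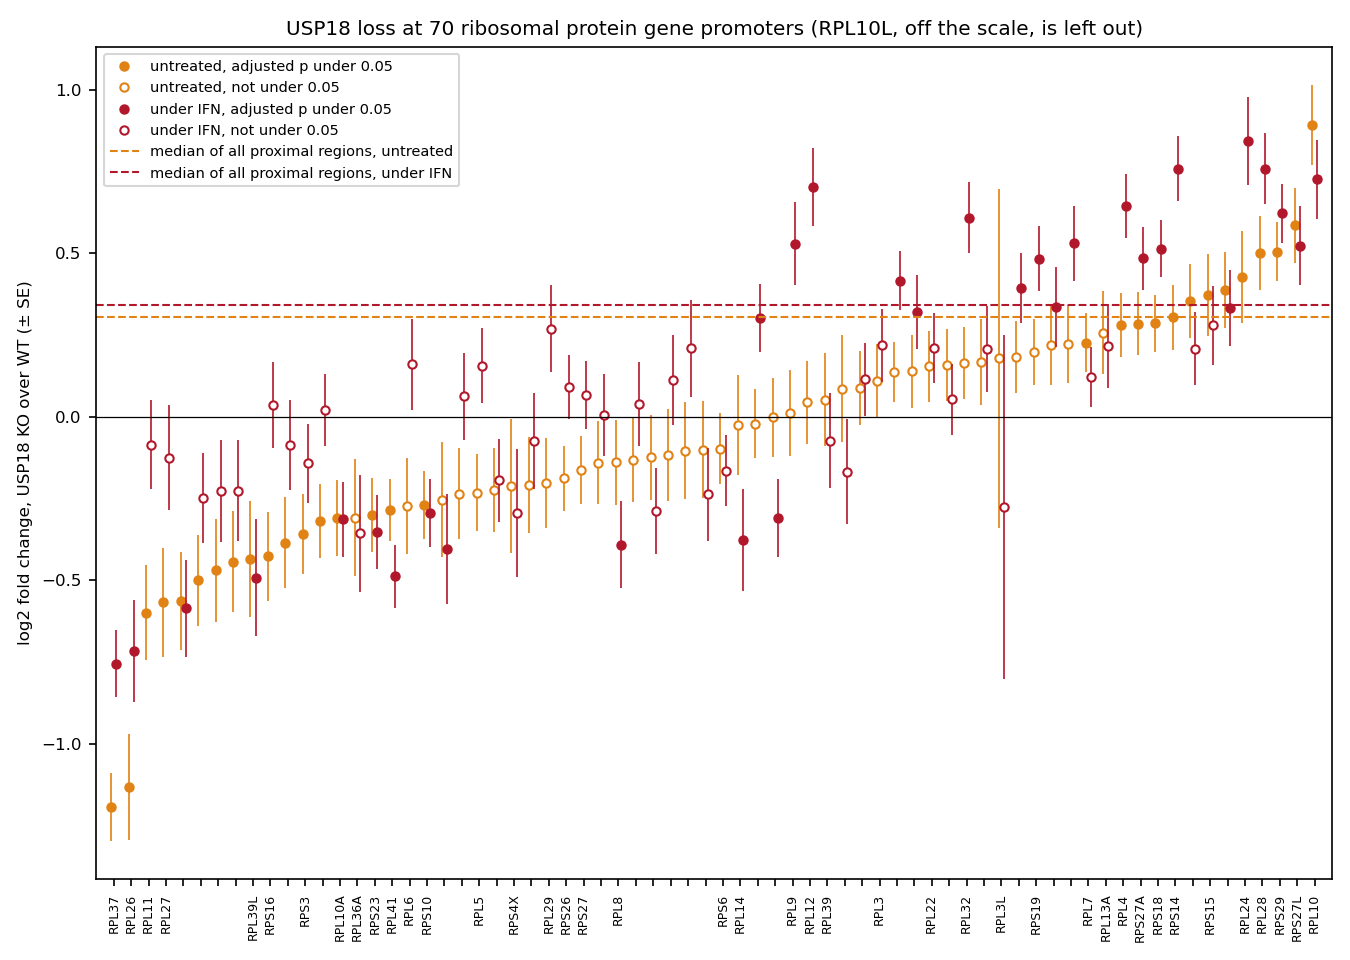
Log2 fold change of USP18-/- over WT cells (y axis, with SE) at 70 ribosomal protein genes (x axis, ordered by the untreated value, some labelled by name), untreated in orange and under IFN in red; filled points have an edgeR adjusted p under 0.05 and dashed lines mark the medians of all proximal regions, 0.31 and 0.34. Most genes lie below the dashed lines, RPL37 and RPL26 are lowest in both comparisons and RPL10 is the highest in untreated cells; RPL10L, at 2.34 and 2.5, is left out.

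In USP18-/- cells IFN treatment raised a share of the promoters, each by less than 2-fold. Of 97 windows, 31 were higher and 1 lower (32% and 1.03%) by the same edgeR test with Benjamini-Hochberg adjusted p, beside 12.9% and 11.2% of all regions and 17.1% and 11.0% of proximal regions. Past a 2-fold change 0 windows were higher and 0 lower, beside 7.12% and 4.41% of all regions. The median log2 fold change was 0.17 over the 71 genes, 0.03 over proximal regions and 0.11 over mitochondrial ribosomal protein genes. ISG windows had a median of 3.15. By subunit, 15 of 43 large subunit genes and 7 of 28 small subunit genes were higher. The single fall was at RPS27L, from 38.7 and 42.8 CPM to 33.0 and 30.1 CPM (-0.36, SE 0.11, edgeR adjusted p = 0.0092). Its call was lost in 2 of 17 alternatives of the processing. This fall and the rise of RPS27L with USP18 loss share the untreated USP18-/- libraries. The count of higher windows depended on single libraries. Without USP18-/- untreated replicate 1, 16 windows were higher, and without USP18-/- IFN replicate 1, 20 were higher with a median of 0.09. Over the whole list, the median gene stood at 0.947 and 0.937 of its mean over libraries in the untreated USP18-/- replicates. In the treated ones it stood at 1.13 and 1.05, which does not overlap. With the header totals the values were 0.964 and 0.908 untreated and 1.10 and 0.966 treated, so the gap depends on the scaling.

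RPL12, which forms the base of the ribosomal stalk, had the largest rise. Its untreated USP18-/- libraries held 20.6 and 25.3 CPM, and its IFN treated ones held 43.4 and 39.5 CPM. The treated libraries lay above the untreated ones, as at 38 of 71 genes and in 27.8% of all tested regions. The log2 fold change was 0.85 (SE 0.12, edgeR adjusted p = 6.6e-09). A second window, 460 bp into the gene, gave 0.43. At RPL11 the treated libraries held 20.1 and 20.7 CPM and the untreated ones 11.8 and 13.9 CPM (0.67, SE 0.14, edgeR adjusted p = 0.00013). The treated level at RPL11 is within the range of the WT libraries, 18.5 to 22.4 CPM, and this rise and the fall with USP18 loss share the untreated USP18-/- libraries. RPL5, its partner in the MDM2 complex, rose from 24.3 and 29.9 to 37.7 and 36.8 CPM (0.46, SE 0.12, edgeR adjusted p = 0.0011). RPL6, RPS16 and RPL29 rose by 0.52, 0.51 and 0.49, with calls lost in 3, 2 and 1 of 17 alternatives. RPS26, another gene of Diamond-Blackfan anemia, rose from 43.8 and 43.0 CPM to 56.1 and 54.3 CPM (0.35, SE 0.10, edgeR adjusted p = 0.0048). The calls at RPL5 and RPS26 were each lost in 2 of 17 alternatives. Estimates at RPL3L, RPL8, RPL14 and RPL41 were negative, between -0.26 and -0.19, and none passed the test. RPL3L had 1.62 and 0.629 CPM untreated, too few tags for any direction.

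The difference between the IFN effects in USP18-/- and WT cells was tested directly as a contrast of the same fit. It was positive at 7 of 97 windows and negative at 0 (7.22% and 0%) by the same edgeR test with Benjamini-Hochberg adjusted p, beside 6.73% and 5.22% of all regions. This share of positive calls is near the background. Past a 2-fold change there were 0 windows either way, beside 4.61% and 2.55% of all regions. At an unadjusted p under 0.05, 21 windows were positive and 0 negative (21.6% and 0%), beside 11.7% and 10.3% of all regions and 15% and 9.49% of proximal regions. The 7 windows lay at RPL12, RPL9, RPL37, at both windows of RPS14 and at both windows of RPL32. RPL12 had the largest difference, 0.66 (SE 0.17, edgeR adjusted p = 0.0044), followed among genes called by RPL9 at 0.52 (SE 0.18, edgeR adjusted p = 0.048). RPS14 gave 0.45 (SE 0.14, edgeR adjusted p = 0.019), with 42.6 and 41.6 CPM in WT, 39.8 and 41.1 CPM in WT with IFN, 52.8 and 51.3 CPM in USP18-/- cells and 68.2 and 68.7 CPM in USP18-/- cells with IFN. RPS19 gave 0.29 and did not pass the test (edgeR adjusted p = 0.22). RPL11, RPL29 and RPS16 gave 0.51, 0.47 and 0.46 and also did not pass. The largest negative estimates, at RPL3L (-0.45), RPL14 (-0.35), RPL23A (-0.31), RPS24 (-0.25) and RPL8 (-0.25), did not pass either. DESeq2 called 1 window, a filter at 30 counts gave 13, and leaving out single libraries gave 1 to 6.

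How these promoters appear to move depends on the library scaling. Against their own geometric mean over libraries, the factors implied by the member promoters ran from 0.894 in WT untreated replicate 1 to 1.21 in USP18-/- IFN replicate 1. TMM over all regions gave 0.919 to 1.09, the sum over regions 0.850 to 1.22, and TMM of proximal regions alone 0.801 to 1.23. For USP18 loss in untreated cells, the median of the 97 windows was 0.15 with TMM of distal regions, -0.0028 with TMM of all regions, -0.06 with the library totals given in the file header, -0.15 with the sum over regions and -0.32 with TMM of proximal regions. The calls followed, from 38 higher and 9 lower windows with distal TMM to 5 higher and 49 lower with proximal TMM. Under IFN the same pair gave 48 higher and 5 lower, then 16 higher and 46 lower. A scaling shifts every region alike, so the distance between the members and the proximal regions is the same under each by construction and is no sign of stability. The member median less the proximal median was -0.31 in untreated cells, -0.25 under IFN, 0.14 for IFN in USP18-/- cells and 0.04 for IFN in WT cells. With the ribosomal protein promoters as the reference, the median of proximal regions was 0.34 with USP18 loss in untreated cells, 0.24 under IFN and -0.17 with IFN in USP18-/- cells. That reference centers the members on themselves, so their calls, 3 higher and 12 lower with IFN in USP18-/- cells, follow from the centering.

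**Figure D4:**
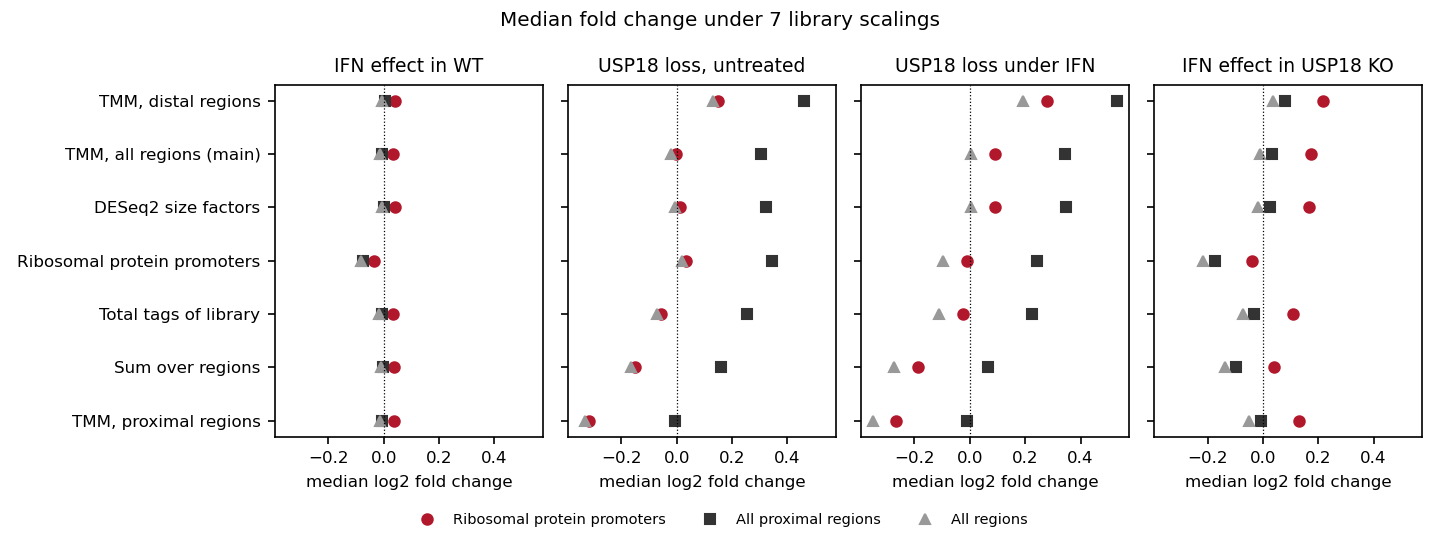
Median log2 fold change (x axis) of the 97 ribosomal protein promoter windows, all proximal regions and all regions under 7 library scalings (y axis) in 4 comparisons (panels). With USP18 loss in untreated cells the ribosomal protein promoters move from 0.15 to -0.32 with the scaling, and the other sets shift with them, since a scaling moves every region alike.

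The position along the chromosome was compared next, since edited lines can differ in broad stretches. The median over regions within 5 Mb, members left out, ranged from -0.86 to 0.50 around the 71 genes with USP18 loss in untreated cells. Subtracting it left the spread of the gene values at an SD of 0.45, beside 0.46 before, and left the median at -0.12. After subtraction 23 of 71 genes were positive, beside 32 before it. At RPS27L the value was then 0.70, at RPS14 it was 0.31, at RPL10 0.51 and at RPL28 0.06. For RPL28 nearly all of the difference was therefore shared with its neighborhood, whose median was 0.44. Across the 71 genes, the untreated genotype difference correlated with GC content at r = -0.27, whereas over 28847 proximal regions r was 0.21. It correlated with the level at Spearman's rho = 0.39. These are descriptions over promoters that share the 8 libraries. The 36 genes with a strict TOP start had a median of -0.11 in untreated cells and 0.04 under IFN. At the 20 genes without such a start at the entry read the medians were 0.12 and 0.25.

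At 21 of 71 genes (29.6%) none of the 4 comparisons between groups passed the test, beside 34.6% of proximal regions and 47.6% of all regions. Among them were RPS6, RPL13A, RPL3, RPL22, RPL39, RPS27, RPS4X and RPL36A. RPL22, a large subunit protein known for its part in T cell development, had 37.2 and 39.8 CPM in WT, 42.9 and 40.6 CPM in WT with IFN, 44.3 and 41.4 CPM in USP18-/- cells and 53.3 and 43.2 CPM in USP18-/- cells with IFN. At RPS6 all 8 libraries lay between 33.4 and 41.6 CPM. RPL36A, an X-linked large subunit gene, ranged from 8.10 to 11.6 CPM. A p over the threshold with 2 libraries a group does not show equal levels, and the SE of the log2 fold change at RPS6 was 0.11. The 8 other cytoplasmic ribosomal protein genes that the naming rule leaves out, among them RPLP0 and RPSA, had 13 windows. Of these, 2 were higher and 1 lower with USP18 loss in untreated cells, 5 and 1 under IFN, and 0 and 1 with IFN in USP18-/- cells.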

How the data were processed

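H3K27ac ChIP-seq libraries of 4 groups with 2 replicates each were used, and the 8 input samples were not analysed here. Per the labels, reads were mapped to hg38 with Bowtie2. The authors counted raw tags with HOMER, and the deposited values are expected counts, fractional tags per 1000 bp window without normalization. The deposited peak score of each ATAC-seq region has no sample of its own and entered no test. Of the values, 52.2% were whole and all were multiples of 0.5. They were rounded to whole counts for the tests.

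Groups came from the sample titles, and 0 value columns were unmapped. Regions that reached 10 counts in 2 or more libraries were fitted with edgeR 4.0.16 in R 4.3.3 (TMM scaling, quasi-likelihood test, all 8 libraries, Benjamini-Hochberg over 123276 regions). A window was called at an adjusted p under 0.05 without a fold minimum, and counts past 2-fold are given beside it. The biological coefficient of variation common to all regions was 0.0747. The steps were tested on simulated data. Replicates are labelled biological, and p-values measure the spread between these libraries.

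Genes named are the 5 largest rises and falls per comparison, the 3 highest and 3 lowest levels, and genes fixed by role. Genes RPL9, RPL32, RPL37 and RPS14 in the test of the IFN effects, and those of the lists of shared calls and of genes without a call, were named from their calls. Members, lists and tests were chosen with earlier results of these data known. Comparison lists took windows within 3000 bp of the TSS. Alternatives were 6 other scalings (DESeq2 1.42.0 among them), filters, a fold minimum, window choices, the 4 libraries of a comparison alone, a replicate block, local medians and leaving out each library. RefSeq promoter entries were not used here for 15 genes, among them RPL3L, RPL5, RPL7, RPL8, RPL23, RPL23A, RPL30, RPL37, RPL39L and RPS15A. The values of some genes are not reported here. RPL35A had no member window.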

Additional observations from a re-analysis of the deposited data

Results flagged for a closer look

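At 5 ribosomal protein genes the IFN effect in USP18-/- cells differed from that in WT cells by the direct test, with an adjusted p under 0.05 in edgeR after Benjamini-Hochberg correction. Over windows these calls were 7.22% of the members, near the 6.73% of all regions and 8.3% of proximal regions called in that direction. The difference on the log2 scale was 0.66 at RPL12, 0.52 at RPL9, 0.45 at RPS14, 0.44 at RPL32 and 0.44 at RPL37, all toward a higher IFN effect in USP18-/- cells. RPL12 rose in both USP18-/- libraries and its call held in 15 of 17 alternatives. RPL9 and RPL32 held in 5 of 17 each, and RPL37 and RPS14 in 8 of 17 each. Groups of 2 libraries were not examined for outlying samples.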

How the results depend on the processing

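IFN in WT cells gave 0 calls in either direction under every alternative run, and its median moved to -0.034 with the ribosomal protein promoters as reference. For USP18 loss in untreated cells, higher and lower windows and median were 13, 34 and -0.15 with the sum of counts, 5, 49 and -0.32 with TMM of proximal regions, and 38, 9 and 0.15 with TMM of distal regions. DESeq2 gave 11 lower, and a 2-fold minimum 3 higher and 3 lower. With 1 window per gene 14 were higher with a median of -0.10. The median was -0.058 with header totals, 0.035 with the members as reference, -0.083 with a filter at 30 counts, -0.062 for windows within 1000 bp and -0.081 less the median within 5 Mb. Under IFN the same loss gave 18, 35 and -0.19 with the sum of counts, 16, 46 and -0.27 with TMM of proximal regions, and 5 lower and a median of 0.28 with TMM of distal regions. DESeq2 gave 7 lower, 1 window per gene 21 higher, and a 2-fold minimum 3 higher and 0 lower. The median was -0.026 with header totals and -0.0093 with the members as reference. IFN in USP18-/- cells gave 19, 7 and 0.042 with the sum of counts and 3, 12 and -0.038 with the members as reference. Lower windows were 2 with header totals, 3 with TMM of proximal regions and 2 with the filter at 30 counts, and a 2-fold minimum gave 0 and 0. The difference of the IFN effects gave 1 higher window with the sum of counts, header totals, the members as reference and DESeq2, 13 with the filter at 30 counts and 0 with a 2-fold minimum. Its median was 0.033 with the sum of counts and 0.028 with the members as reference. The scalings change these values by construction, and the cause of the other changes was not tested. Leaving out 1 library at a time gave 15 to 24 higher and 10 to 22 lower windows and medians of -0.026 to 0.0055 for USP18 loss in untreated cells. Under IFN it gave 26 to 33 higher and 8 to 16 lower, with medians of 0.01 to 0.10. For IFN in USP18-/- cells it gave 16 to 31 higher, 0 to 3 lower and medians of 0.086 to 0.21, and for the difference 1 to 6 higher and medians of 0.08 to 0.18. With a replicate block, IFN in USP18-/- cells gave 31 higher and 2 lower windows and USP18 loss 24 higher and 22 lower untreated and 33 and 15 under IFN. Deviations of libraries with the same number correlated at 0.0014 to 0.039, so the numbers were not taken as pairs. Over 64 gene values and 1086 alternatives, 969 kept direction and side of the threshold, 102 lost and 8 gained the call, and 7 changed sign. Those were RPL10L with IFN in WT (0.34 without WT untreated replicate 2, with a range of -0.60 to 0.34 on leaving out 1 library), RPL13 with IFN in WT (0.027 without WT untreated replicate 1, range -0.25 to 0.027), RPL3L with IFN in USP18-/- cells (0.62 without USP18-/- untreated replicate 1 and 0.03 without USP18-/- IFN replicate 1, range -0.77 to 0.62), RPL3L in the difference (0.41 without USP18-/- untreated replicate 1, range -0.98 to 0.41), and RPS14 and RPS27A with USP18 loss in untreated cells (-0.0096 and -0.030 with TMM of proximal regions). With 2 libraries a group, small differences were not detectable.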
